A study of Rattus norvegicus with 2 samples.

Results

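Nuclear receptors are transcription factors that a small lipid-soluble ligand, such as a retinoid, fatty acid, sterol or bile acid, switches on or off. Orphan members work without a known natural ligand. Most bind DNA as dimers, many of them with a retinoid X receptor as the shared partner. Bound to DNA, they recruit coactivators, which open chromatin, or corepressors, which recruit histone deacetylases. In the hypothalamus they tie hormone, lipid and retinoid signals to gene expression.

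The genes described here were chosen by name from the array: symbols made of Nr, a digit and a letter, or beginning with Rara, Rarb, Rarg, Rxr, Ppar, Esrr, Ncoa or Ncor. The gluco- and mineralocorticoid receptors (Nr3c1, Nr3c2), Nr1d1, Nr1d2, Nr4a1 and Nr4a3 were left out. This gave 40 genes on 52 probes, out of 17571 genes that a RefSeq table could name and 30356 probes with a usable spot on both arrays. Of the 40 genes, 29 encode receptors and 11 encode coregulators. Probes for 37 genes were well above background on both arrays, which is the scanner software's own call, and these 37 are called measured. No gene was well above background on 1 array alone. Esrrb, Nr5a2 and Nr6a1 had no probe that passed on either array. Of 12 genes with 2 probes, 8 had both measured.

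The conditions compared had 1 array each, in Sprague Dawley rats from an expression study of prenatally programmed hypertension. One array held total RNA from the paraventricular nucleus of male rats aged 12 weeks whose mothers had received dexamethasone, a synthetic glucocorticoid, at 200 µg/kg in the third trimester. The other held RNA from the same nucleus of males of that age born to vehicle-treated mothers, called control. The sources used here do not say how many animals an array stands for. A single array per condition allows no test, no p-value and no replicate check, and the number of arrays limits the precision. Values are processed signals, the background-subtracted brightness of a probe, and differences are log2 dexamethasone minus control after scaling each array to its 75th percentile. Errors marked as scanner errors come from the software's error model for a spot. They cover the array measurement and not the animals.

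The share of probes well above background was 78.2% on the dexamethasone array and 79.5% on the control array. The tissue label was checked against markers: the vasopressin gene Avp had a signal of 971.1 on the dexamethasone array and 3468 on the control array, the oxytocin gene Oxt 587.3 and 1455. Crh, the corticotropin-releasing hormone gene, went the other way, with 636.3 on the dexamethasone array and 230.2 on the control array. Of 12 measured hypothalamus markers 6 were above and 6 below 0, with 3 past 2-fold above control and 2 past it below (median 0.08). Sim1, a transcription factor that specifies the nucleus, was dim at 12.0 and 14.1, and Otp was not well above background on both arrays. Markers of neighbouring regions differed between the arrays. All 9 measured cortex and hippocampus markers were at least 2-fold higher on the dexamethasone array (summed signal 42260 against 2257 on the control array, median difference 4.41). With normexp 6 of the 9 were past 2-fold and the median was 2.93. Of 10 striatum markers 8 were higher (25216 against 19005, median 0.68), and all 9 thalamus markers were lower (88513 against 156810, median -0.95). All 4 blood markers were higher (210940 against 73880). In bulk tissue, fewer cells of a type and less RNA per cell cannot be told apart. The part of regional makeup in the values below was not tested.

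Receptors and coregulators were for the most part close to equal on the arrays. Of the 37 measured genes, 36 lay within 2-fold, 0 were at least 2-fold higher and 1, Nr1h5, was at least 2-fold lower on the dexamethasone array. Over all 14176 measured genes, 5.76% were past 2-fold: 3.37% higher and 2.38% lower. At 1.5-fold, 1 member (Nr2e1) was higher and 3 (Nr1h5, Nr0b2 and Rxrg) were lower, where all genes gave 7.3% and 7.52%. The members' share past 2-fold was therefore near, or below, that of the array as a whole. Their median difference was -0.07 against 0.01 over all measured genes, with 16 above and 21 below 0. Their median absolute difference was 0.20, the same as the 0.20 over all measured genes.

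**Figure D1:**
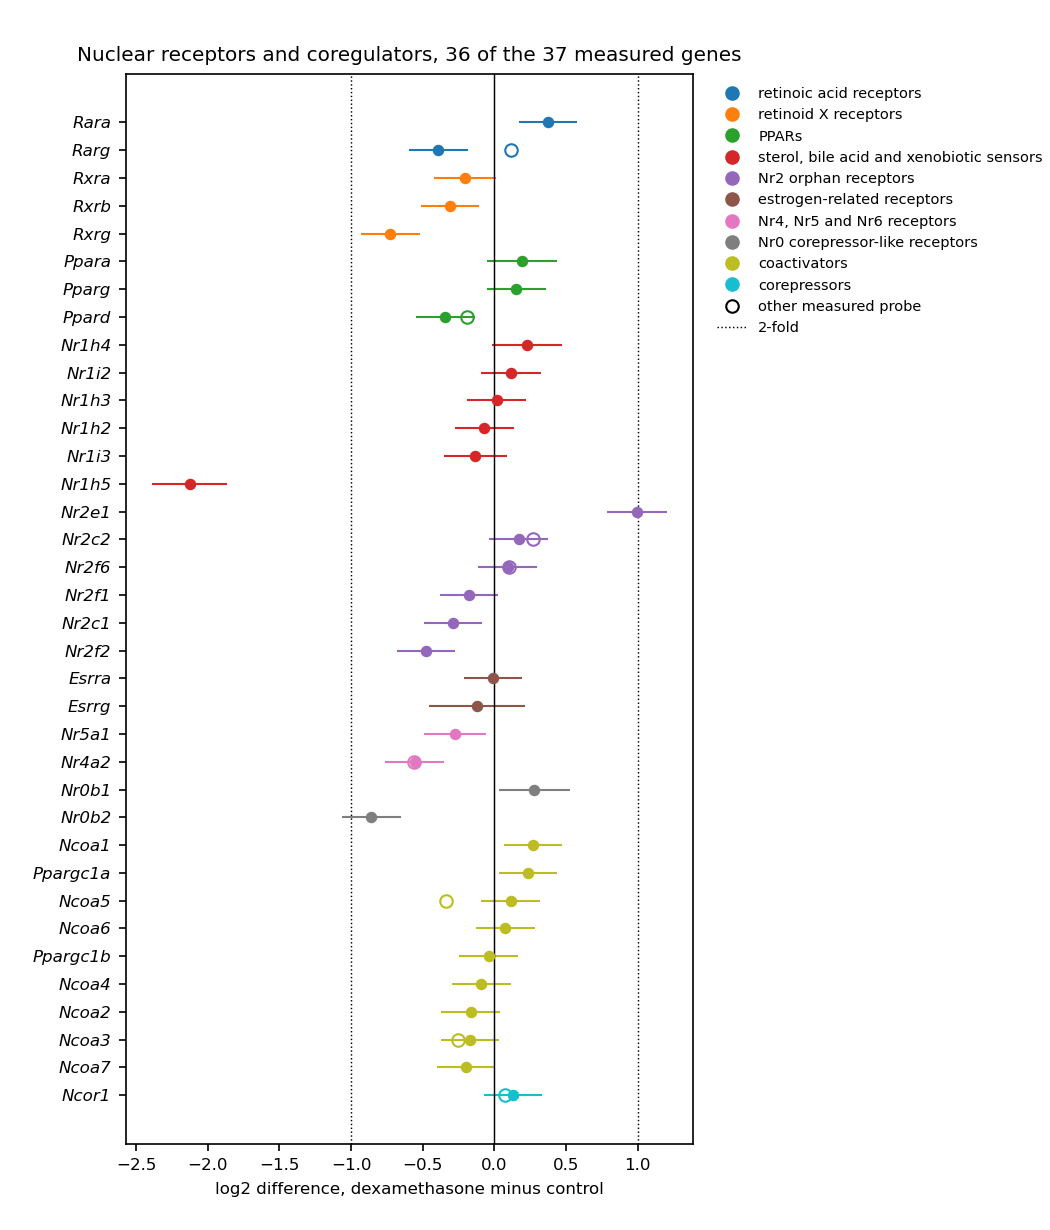
Log2 difference (dexamethasone minus control) of 36 of the 37 measured genes, grouped by role. Filled points are the probe that stands for the gene, bars the scanner error of the difference, open circles a second measured probe, and dotted lines 2-fold; only Nr1h5 lies beyond them, at -2.13, with Nr2e1 just inside the line at 0.997.

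The 11 coregulators lay closer together than the 26 measured receptors. On the probe that stands for the gene, all coregulators were within 0.27 of 0, while 13 receptors lay outside that range. The range held 61.2% of all measured genes. The other measured probe of Ncoa5 lay outside it, at -0.34. The median absolute difference was 0.16 over coregulators and 0.25 over receptors. Over the 4725 dimmest measured genes it was 0.28, and over the 4726 brightest 0.16. The dimmest coregulator, Ncoa2, had signals of 131 on the dexamethasone array and 140 on the control array. The dimmest measured receptor, Esrrg, had 15.8 and 16.3. The part of brightness in the contrast between receptors and coregulators was not tested. Of the receptors, 10 were above and 16 below 0, and of the coregulators 6 were above and 5 below. Scanner errors of the difference were between 0.20 and 0.34, and 6 of the 37 genes differed by more than 2 times theirs. The same share was not computed over all measured genes, so the count does not set the members apart. The smallest of the 6 differences, that of Nr2f2, was exceeded by 19.7% of all measured genes.

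**Figure D2:**
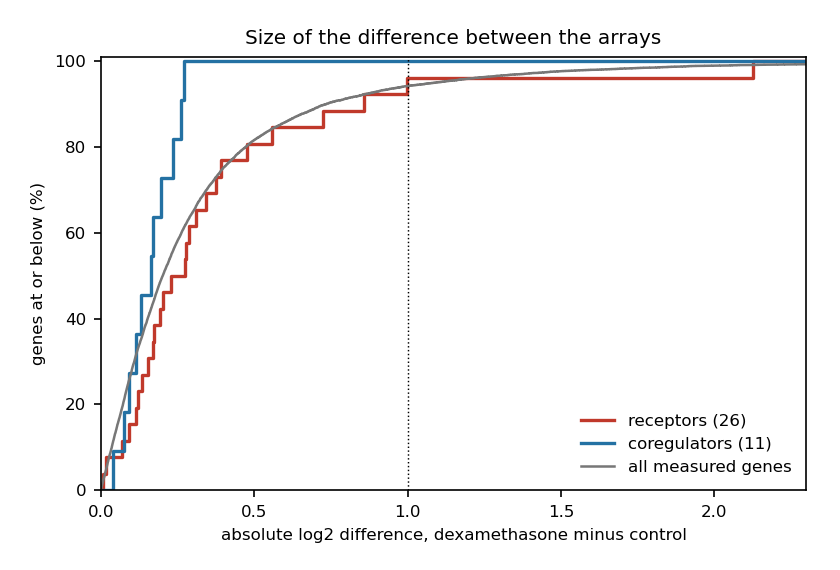
Cumulative share of genes (%) against the absolute log2 difference between the arrays, for 26 receptors, 11 coregulators and all 14176 measured genes. The coregulator curve reaches 100% at 0.27; the receptor curve has its last step at 2.13 for Nr1h5.

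Nr1h5, the farnesoid X receptor beta, which binds lanosterol in mice, had a processed signal of 13.9 on the dexamethasone array and 57.7 on the control array, with scanner errors of 2.10 and 5.93. It was 4.37-fold lower on the dexamethasone array (log2 difference -2.13, scanner error 0.26), and 0.854% of all measured genes differed by more. The gene was dim. Of the 1009 measured genes of similar brightness (0.5 log2 to either side), 10.6% were past 2-fold and 1.78% differed at least as much. With normexp background correction its difference was -0.65 and without any background correction -0.79, so the 2-fold call ended under both. Both settings raise dim signals on the 2 arrays alike, normexp by an offset of 50, which draws log2 differences toward 0 by arithmetic. A single probe reports it, on chromosome 2 from 198170179 to 198170238 on the minus strand of rn4, and the array annotates it by an Ensembl transcript of an uncharacterized protein. Whether it also pairs with another transcript was not analysed here.

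Nr2e1, or Tlx, an orphan receptor that keeps neural stem cells of the forebrain undifferentiated, was the member with the largest excess. Its signal was 93.2 on the dexamethasone array and 44.3 on the control array, with scanner errors of 9.44 and 4.63. The log2 difference was 0.997 (scanner error 0.21), just inside the 2-fold line, and 11.4% of 1145 genes of like signal were past 2-fold. The value was 0.53 with normexp, 0.51 without background correction and 1.05 with cyclic loess normalization, so background handling moved it the most. The array design gives its probe no position on rn4. It was higher on the same array as the cortex and hippocampus markers (median 4.41), whose part in it was not tested.

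For each of these 2 genes everything rests on 1 oligonucleotide of 60 bases. The first 30 bases of each, from the array design, are given so that its target can be looked up.
Nr1h5 probe: aaggaccccaggttggttatgctattctct
Nr2e1 probe: atcggcaacgtgccgataacgagactgctt

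The promoters of the 4 members past 1.5-fold are shown because the study concerns DNA methylation, which in vertebrates falls on CpG dinucleotides, and because they differ in CpG content. Each is the 250 bases before the annotated start, from RefSeq on the GRCr8 build, in the direction of the gene, with every CpG in capitals. They are chr2:193175699-193175948 (minus strand) for Nr1h5, chr5:151062910-151063159 (plus) for Nr0b2, chr13:82276237-82276486 (plus) for Rxrg and chr20:47653465-47653714 (minus) for Nr2e1.
Nr1h5: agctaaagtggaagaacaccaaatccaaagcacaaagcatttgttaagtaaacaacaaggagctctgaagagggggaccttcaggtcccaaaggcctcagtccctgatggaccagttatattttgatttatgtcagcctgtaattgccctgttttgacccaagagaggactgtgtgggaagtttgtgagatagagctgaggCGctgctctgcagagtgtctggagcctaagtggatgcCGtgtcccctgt
Nr0b2: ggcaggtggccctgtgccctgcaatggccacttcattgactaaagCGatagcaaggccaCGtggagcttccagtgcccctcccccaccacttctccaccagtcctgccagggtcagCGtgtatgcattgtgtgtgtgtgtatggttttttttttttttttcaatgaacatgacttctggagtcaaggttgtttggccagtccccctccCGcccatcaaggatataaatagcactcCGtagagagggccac
Rxrg: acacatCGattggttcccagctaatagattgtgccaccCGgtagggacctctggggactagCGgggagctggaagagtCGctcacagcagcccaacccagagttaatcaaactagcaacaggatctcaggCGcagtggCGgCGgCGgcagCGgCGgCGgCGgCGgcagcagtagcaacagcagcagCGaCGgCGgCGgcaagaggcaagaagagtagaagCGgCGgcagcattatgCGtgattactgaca
Nr2e1: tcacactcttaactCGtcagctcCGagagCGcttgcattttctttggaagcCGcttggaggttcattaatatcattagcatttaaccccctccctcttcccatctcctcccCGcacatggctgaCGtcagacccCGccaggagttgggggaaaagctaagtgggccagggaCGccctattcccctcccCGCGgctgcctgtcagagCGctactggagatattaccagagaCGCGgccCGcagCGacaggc
Nr1h5 has 2 CpGs in its 250 bases and Nr0b2 has 5, against 20 in Rxrg and 15 in Nr2e1. The observed over expected CpG ratio is 0.14 for Nr1h5, 0.29 for Nr0b2, 0.88 for Rxrg and 0.73 for Nr2e1. Both CpG-poor and CpG-rich promoters thus stand among the members that differed most. The nuclear receptor half-site AGGTCA, searched on both strands, is in none of the 4 and in 14.1% of all 33469 promoter windows. The steroid receptor half-site TGTTCT is in Nr1h5 alone of the 4, starting at position -238 relative to the annotated start, and in 17.5% of all windows. These are matches of letters and not sites of binding; methylation was not analysed here.

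Retinoic acid receptors bind all-trans retinoic acid and act with a retinoid X receptor. No probe used here carried the symbol Rarb, so the beta receptor is missing. Rara, the alpha receptor, had a signal of 368.8 on the dexamethasone array and 269.8 on the control array (difference 0.38, scanner error 0.20). Rarg, the gamma receptor, had 896.7 and 1116 (difference -0.39). Its second, dimmer probe gave 51.8 and 45.3, a difference of 0.12, so the direction for Rarg depends on the probe.

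All 3 retinoid X receptors, the shared partners of many nuclear receptors, were lower on the dexamethasone array. Rxrg, the gamma form, which in the brain marks the striatum among other regions, had a signal of 823.5 on the dexamethasone array and 1292 on the control array. That is 1.65-fold lower (difference -0.73, scanner error 0.20), and the value stayed between -0.74 and -0.70 over all settings tried. In the same comparison 8 of 10 striatum markers were higher and 2 lower, Isl1 (-0.75) and Foxp1 (-0.30). All 9 thalamus markers were lower (median -0.95). The part of regional makeup in the Rxrg value was not tested. Rxrb, broadly expressed, had 1821 and 2142 (difference -0.31), and Rxra 39.2 and 42.9 (difference -0.20), both smaller than 1.5-fold.

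Peroxisome proliferator-activated receptors sense fatty acids. Ppard, the delta form and the most widespread in brain, was at -0.34 on its brighter probe (135.6 on the dexamethasone array, 163.2 on the control array) and at -0.19 on the other. Pparg, the adipogenic form and target of glitazones, had 100.6 and 85.8 (difference 0.15), and Ppara, the form that drives fatty acid oxidation in liver, 24.0 and 19.9 (difference 0.19). Ppara was at -0.05 with normexp background correction. All 3 lay within 1.5-fold.

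Among the sterol, bile acid and xenobiotic sensors, Nr1h5 stood alone. The liver X receptors, which bind oxysterols and drive cholesterol export, were almost equal. Nr1h2, the beta form, had a signal of 2968 on the dexamethasone array and 2954 on the control array (difference -0.07), and Nr1h3, the alpha form, 526.7 and 494.1 (difference 0.02). Nr1h4, the bile acid receptor, was at 0.23, Nr1i2, the pregnane X receptor, at 0.12 and Nr1i3, the constitutive androstane receptor, at -0.13. These last 3 had signals of 22.4 to 67.1 on the 2 arrays, and the second probes of Nr1h4 and Nr1i3 were not well above background.

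**Figure D3:**
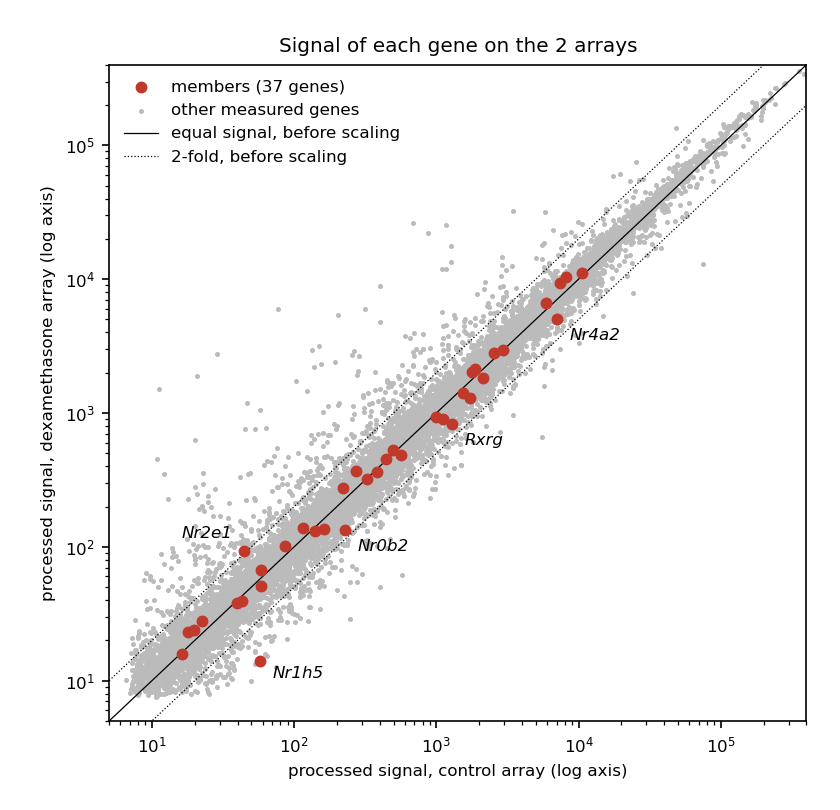
Processed signal of each measured gene on the dexamethasone array (y, log axis) against the control array (x, log axis), before scaling; red points are the 37 receptors and coregulators and grey points the other measured genes. Members lie along the diagonal up to a signal of 11043 on the dexamethasone array (Esrra), with brighter genes beyond. Nr1h5 (13.9 against 57.7) is the one clearly below the 2-fold line. Nr2e1 (93.2 against 44.3) lies just above the upper line here, and just inside it after scaling.

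The Nr2 orphan receptors included both directions. Nr2f2, or COUP-TFII, a factor of ventral forebrain and of veins, had a signal of 1301 on the dexamethasone array and 1718 on the control array, 1.39-fold lower (difference -0.48, between -0.50 and -0.44 over settings). Its close relative Nr2f1, or COUP-TFI, which patterns the cortex, had 931.1 and 997.6 (difference -0.17). Nr2f6 was at 0.09 and 0.10 on its 2 probes. The testicular receptors, repressors and activators of many promoters, went apart by small amounts, with Nr2c1 at -0.29 and Nr2c2 at 0.17 and 0.27 on its 2 probes.

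Estrogen-related receptors are orphan receptors that switch on mitochondrial genes together with PGC-1. Esrra had 10 spots, with a mean signal of 11043 on the dexamethasone array and 10544 on the control array and a difference of -0.01 (SD 0.041 over 10 spot pairs). The dim Esrrg was at -0.12 (15.8 and 16.3). Esrrb, a pluripotency factor, was not well above background, with signals of 1.87 on the dexamethasone array and 4.02 on the control array.

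Nr4a2, or Nurr1, which dopamine neurons require, was lower on the dexamethasone array on both of its probes. The brighter probe had a signal of 5036 on the dexamethasone array and 7031 on the control array, and the other 1440 and 2012, differences of -0.56 and -0.56. Between settings it stayed from -0.61 to -0.54. Its 2 paralogs, which the name rule leaves out, were higher on that array: Nr4a1 at 1.23 and Nr4a3 at 1.75 on its brightest probe. Nr5a1, steroidogenic factor 1, which specifies the ventromedial hypothalamus, had 50.7 and 58.3 (difference -0.28), and its second probe was not well above background. Neither Nr5a2, a liver and gonad factor, nor Nr6a1, the germ cell nuclear factor, was measured, with signals between 1.46 and 4.59 over their 3 probes.

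The Nr0 receptors lack a DNA-binding domain and repress other receptors. Nr0b2, the small heterodimer partner, which bile acids induce in liver, had a signal of 132.7 on the dexamethasone array and 228.3 on the control array. It was 1.81-fold lower (difference -0.86, scanner error 0.21), and 7.70% of all measured genes differed by more. Normexp gave -0.60. Nr0b1, or DAX-1, a partner of Nr5a1, was dim at 23.1 and 18.0 (difference 0.28, but 0.03 with normexp).

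The p160 coactivators recruit histone acetyltransferases to ligand-bound receptors. Ncoa1 (SRC-1), spotted 10 times, had a mean signal of 9437 on the dexamethasone array and 7425 on the control array. Its difference was 0.27 (SD 0.038), and all 10 spot pairs were higher, by 0.22 to 0.35. The spots are repeats of 1 probe on 1 array per condition, and 38.8% of all measured genes differed by more. Ncoa2 was at -0.16 and Ncoa3 at -0.17 on its brighter probe and -0.26 on the other, so the direction was not shared among the p160 genes.

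The other coactivators lay within 1.5-fold. Ncoa7, also with 10 spots of 1 probe, had 1420 on the dexamethasone array and 1545 on the control array. Its difference was -0.20 (SD 0.058), all its spot pairs were lower, and 50.7% of all measured genes differed by more. Ncoa4, which also delivers ferritin for degradation, was at -0.09 and Ncoa6, a scaffold coactivator, at 0.08. Ncoa5 was at 0.11 on its brighter probe and at -0.34 on the other, opposite in sign. Ppargc1a (PGC-1 alpha), which drives mitochondrial gene expression, had 272.8 and 219.9 (difference 0.24), and Ppargc1b (PGC-1 beta) 453.0 and 442.0 (difference -0.04).

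Corepressors carry histone deacetylase 3 to unliganded receptors. Ncor1 had a signal of 2146 on the dexamethasone array and 1861 on the control array (difference 0.13, and 0.08 on the other probe). Of 8 genes with 2 measured probes, 6 had both on the same side of 0, and Rarg and Ncoa5 did not.

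**Figure D4:**
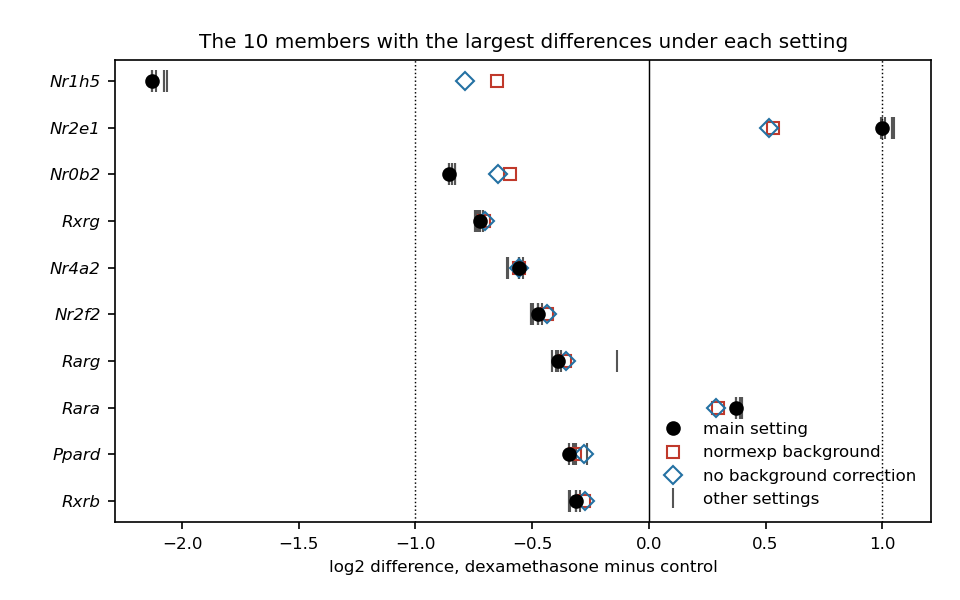
Log2 difference (dexamethasone minus control) of the 10 members with the largest differences under the main setting (black), normexp (red squares), no background correction (blue diamonds) and the other settings (ticks); dotted lines mark 2-fold. Nr1h5 is at -2.13 in the main setting and at -0.65 and -0.79 under the background alternatives, while Rxrg and Nr4a2 hardly move.

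Genes tied to these receptors, as listed targets, partners or genes of the same pathway, were then described. The lists were written with earlier results of these data known, and control of these genes by the receptors was not tested. Genes of the retinoid system came first. Of 16 measured genes of retinoid metabolism and retinoic acid response, 7 were 2-fold or more above control and 0 as far below it (median 0.76), against 3.37% and 2.38% of all genes. Cyp26b1, which degrades retinoic acid, had a signal of 2196 on the dexamethasone array and 137.5 on the control array (difference 3.92). Aldh1a2, which makes retinoic acid, had 225.0 and 53.2 (difference 2.01), and Crabp1, which binds it in the cytoplasm, 107.7 and 29.6 (difference 1.80, but 0.79 with normexp). The retinol-binding protein Rbp4 was at 1.40, the homeobox gene Meis2 at 1.32 and Crabp2 at 1.06. Stra6, the retinol importer, was at 0.04, Aldh1a1 at 0.26 and Dhrs3, a retinaldehyde reductase, at -0.38.

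These values stand beside the 5 retinoid receptors measured, which do not include Rarb. None was past 2-fold, and 4 of the 5 were below 0 on their brightest probe. Of those 4, Rarg was at 0.12 on its other probe, and Rxra (-0.20) lay within its scanner error of 0.22. The retinoid values also stand beside the 9 of 9 cortex and hippocampus markers and a list of 14 measured meningeal genes, written after the differences had been seen. All 14 meningeal genes were higher, 4 of them at least 2-fold (summed signal 42072 on the dexamethasone array against 22748 on the control array). The part of either tissue in the retinoid values was not tested.

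Listed targets of the other receptors were mostly within 2-fold, as were 94.2% of all measured genes. Of all measured genes, 51.3% were above 0. Of 14 liver X receptor targets, 11 were above 0 and 0 past 2-fold (median 0.15); the largest were Lpl, lipoprotein lipase (0.98, and 1.0009 with quantile normalization, past the 2-fold line), Apoc1 (0.53) and Mylip, which degrades the LDL receptor (0.45). Of 24 PPAR targets, 2 were past 2-fold, both higher (median 0.09). They were Ucp2, a mitochondrial uncoupling protein (475.0 on the dexamethasone array, 170.4 on the control array, difference 1.40), and the dim fatty acid binder Fabp4 (1.12, but 0.18 with normexp). Fabp7, a fatty acid binder of radial glia and astrocytes, followed at 0.91. Of 22 targets of PGC-1 and the estrogen-related receptors, counting the member Esrra, 1 was past 2-fold, on the higher side (median -0.01). It was Pvalb, which marks fast-spiking neurons (1.01, and 0.97 with quantile normalization), followed by Vegfa (-0.70) and the synaptic gene Syt2 (0.60).

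Most listed genes tied to the NR4A receptors and dopamine neurons had values above 0, as did Nr4a1 and Nr4a3, while Nr4a2 was below 0. Of 11 measured, 9 were above and 2 below 0, and 6 were 2-fold or more above control and 1 was as far below it (median 1.03). With normexp 3 were past 2-fold on the higher side and the median was 0.57. Over all measured genes, 51.3% were above 0, 3.37% were at least 2-fold higher and 2.38% were as far below. Drd2, also a striatum marker, is among the 11, and the part of regional makeup in these values was not tested. The dopamine transporter gene Slc6a3 was at 4.90, and the neurotrophin gene Bdnf and the vesicular transporter gene Slc18a2 at 1.38 and 1.28, while the peptide gene Vip was at -1.06 and Ret, a growth factor receptor, at -0.43 on its brightest probe and 0.44 and 0.12 on the others. Of 6 measured partners and targets of Nr5a1 and Nr0b1, 5 were above and 1 below 0. At least 2-fold higher were 3: the cannabinoid receptor Cnr1 (1.52), Bdnf again and the GABA-synthesis gene Gad2 (1.25). None was as far below control, but the dim Star was just inside that line at -0.98 (-0.30 with normexp). Of 4 bile acid and xenobiotic targets none was past 2-fold, with the member Nr0b2 at -0.86, Slc51b at 0.39 and Abcb1b at 0.34. A second, dimmer probe of Abcb1b, a drug efflux pump, was at 2.11, so that 1 gene of the list was past 2-fold when all probes of a gene were averaged (Abcb1b at 1.22). Another 7 genes of that list were on the array but not measured on both.

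Coregulators outside the name rule were also within 2-fold. Of 26 measured, 13 were above and 13 below 0, with 0 past 2-fold in either direction (median -0.00015). Ddx17, an RNA helicase and coactivator, was at -0.71, Tbl1xr1, a subunit of the NCoR complex, at 0.60 and Cited2, which binds CBP and p300, at -0.53. The acetyltransferases Ep300 and Crebbp were at 0.15 and 0.23.

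**Figure D5:**
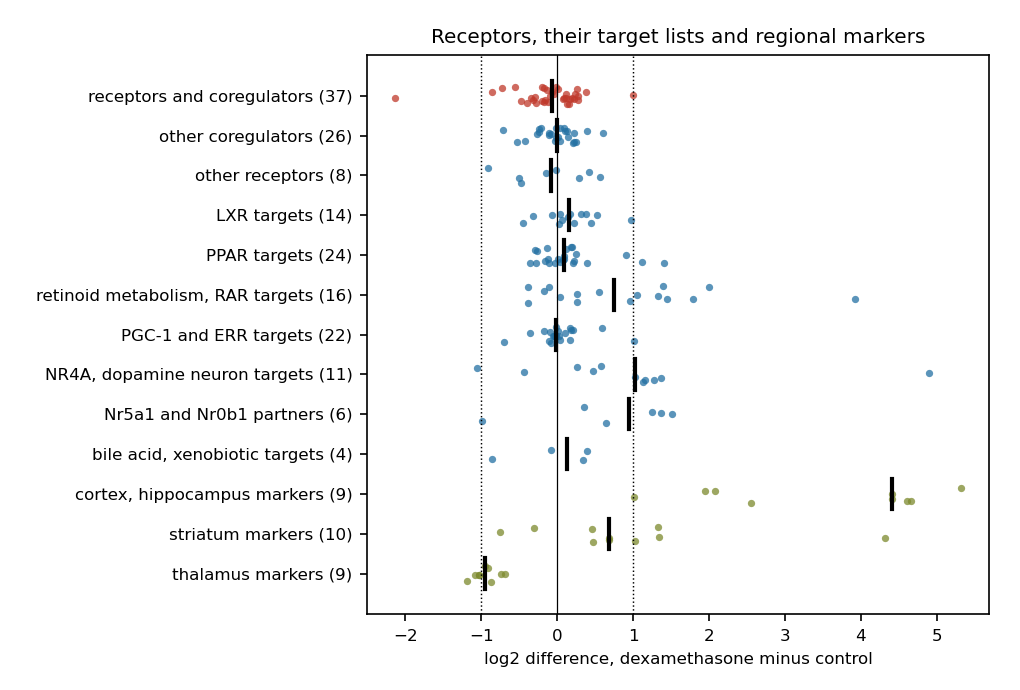
Log2 difference (dexamethasone minus control) of each measured gene (points) and the median of each list (black bars), for the 37 receptors and coregulators (red), the companion lists (blue) and regional markers (green); the number of genes is in brackets and dotted lines mark 2-fold. Receptors and coregulators centre on -0.07, the retinoid list on 0.76, and the cortex and hippocampus markers on 4.41.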

How the data were processed

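Total RNA of the paraventricular nucleus was labelled with Cy3 and hybridised to 1-colour Agilent rat arrays, per the labels. The deposited scanner files hold linear spot intensity, made with Feature Extraction 10.7.1.1 per the file headers (9.5.1.1 per the submitters' processing notes), with probe positions on rn4. The processed intensity is already background-subtracted and detrended within the array, per the file headers. The authors' deposited value table holds intensity of nearly 1 distribution in both columns (median 149.7 each). Its differences correlate at 0.996 with those of the scanner values over 30356 probes. They nearly equal those of quantile normalization here, with 3.48% of all measured genes at least 2-fold higher and 2.35% lower under both. The sources used here do not name its algorithm or centring.

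Spots with an outlier mark (249 on the dexamethasone array, 267 on the control array) were dropped, and saturation marks were absent. The remaining spots of a probe were averaged as log2 intensity and scaled to each array's 75th percentile (signal 1477 and 1402). A gene took its brightest probe well above background on both arrays. Names came from a RefSeq table of GRCr8, used for names and promoters alone: 42 member probes matched by accession and 10 by symbol, and promoter windows were found for 34 of the 40 genes. Dim probes carry larger relative error, so their folds are less reliable. The 2-fold line is a rule of size, with no test behind it. Because both arrays share 1 slide, an effect of slide position cannot be told apart from that of the group. The summary was tested on simulated data, with known changes past 2-fold put only into probes brighter than those of Nr1h5 and Nr2e1. That simulation says nothing of dim genes or of smaller differences.

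Members, lists and the rule for named genes were chosen with earlier results of these data known. By that rule members are named, each companion list is given by its counts, its median and its 3 most different genes, and further genes were named after their values were seen. A few genes counted in these totals are not reported here by name. Alternatives changed the scaling, the background correction, the probe summary, the filter, the spots kept, the size rule and the source of the values. Tools were Python 3.11.15, R 4.3.3 and limma 3.58.1.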

Additional observations from a re-analysis of the deposited data

How the results depend on the processing

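The 10 alternatives left the picture of the members close to the main setting, apart from the calls that sit at the 2-fold line or in dim signal. The count of members at least 2-fold higher was 1 in place of 0 with scaling by the median of detected probes, with quantile and cyclic loess normalization and in the deposited value table, each time through Nr2e1, and 1 at a 1.5-fold rule. The count at least 2-fold lower was 0 in place of 1 with normexp, without background correction and among genes of above-median signal, 3 with no filter on dim probes (40 genes, with Esrrb and Nr5a2 added from below background), and 3 at a 1.5-fold rule. Of 348 member values under an alternative, 338 moved by less than the scanner error of the difference and 10 by more, and none past 2-fold changed sign. Part of this was fixed in advance. The filter settings leave a measured member's value as it is, and so does the probe mean where 1 probe is measured. Scaling by the median of detected probes shifts every gene by the same amount (Nr1h5 from -2.1272 to -2.1109). Keeping all spots left Nr1h5 at -2.1276. The deposited value table nearly repeats quantile normalization (Nr1h5 at -2.0768 and -2.0767), so the 10 alternatives are not all separate checks. The scanner error (median 0.20) is also as large as the members' median absolute difference (0.20), so many values could reach 0 and count as unmoved. In 31 of the 37 genes the sign was the same in every setting, and the other 6 were all within 0.19 of 0. The share of all genes past 2-fold was 2.0% higher and 0.917% lower with normexp, against 3.37% and 2.38%, so the split of calls shifted toward higher.

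Among the companion medians, 12 of 90 moved by more than the median scanner error. The retinoid list was at 0.49 with normexp and 0.50 without background correction, with 6 of 16 genes past 2-fold under both. The dopamine neuron list was at 0.57 under both, with 3 in place of 6 genes at least 2-fold higher, 0.77 with the mean of all probes and 0.80 for genes of above-median signal. The Nr5a1 and Nr0b1 list was at 0.52 with normexp and 0.50 without background correction, with 2 in place of 3 genes past 2-fold, 0.70 with no filter and 1.38 for the 2 bright genes. The lists of other receptors and of bile acid targets were at 0.57 and 0.34 when 1 bright gene each was left. The last 2 follow from the fewer genes. Normexp added an offset of 50 on both arrays. Without background correction the local background stayed in the signal (median 63.5 on the dexamethasone array, 66 on the control array). Raising both arrays alike draws the log2 differences of dim probes toward 0 by arithmetic. How much of each other shift this made was not tested. Signals near background limit what can be said of Nr1h5, Esrrg, Nr0b1, Nr1h4 and Ppara. No paired analysis was possible because each group has 1 array. No array could be left out for the same reason.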

Other observations

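A chosen list of nuclear receptors with symbols outside the name pattern gave 8 measured genes, of which 3 were above and 5 below 0, and 0 were past 2-fold (median -0.08). The 6 receptors that match the pattern but were left out by the rule are not in that list. Of these, Nr3c2, the mineralocorticoid receptor, was at 2.21 (3925 on the dexamethasone array, 804.1 on the control array), and Nr4a1 and Nr4a3 were past 2-fold as well. Thra, the main thyroid hormone receptor of the brain, had a signal of 3334 on the dexamethasone array and 2130 on the control array (difference 0.57). Vdr, the vitamin D receptor, was dim at 14.5 and 25.7 (difference -0.90, and -0.26 with normexp), and Rora, an orphan receptor of the clock and of the cerebellum, was at -0.47. Esr2, an estrogen receptor, was at 0.43, but at -0.08 with normexp, so its direction depends on the background correction. Thrb, Esr1 and Hnf4g were on the array but not measured on both.

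Promoter CpG content was set beside the size of the difference. Of the 31 measured members with a promoter window, 20 had an observed over expected CpG ratio of at least 0.6 in the 250 bases before the start, taking the window with the highest ratio where a gene has several. Of those 20, 2 were past 1.5-fold, and of the 11 below that ratio also 2. Over 11555 measured genes the shares past 1.5-fold were 10.9% of CpG-rich and 19.7% of CpG-poor promoters, and among the 3852 brightest of them 6.27% and 11.5%. Genes are not replicates, and CpG-poor genes also tend to be dimmer, so these are descriptions of the 2 arrays.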
